A study of Mus musculus with 11 samples.

Results

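Ribosome-bound RNA of hippocampal astrocytes was compared between female mice that lacked estrogen receptor β (ERβ) in astrocytes but kept their ovaries, called ERβ cKO (sham), and wildtype mice whose ovaries had been removed, called WT (GDX). The comparison used 8 of the 11 libraries of the series, 4 in each group, with 1 library per mouse, and the other 3 libraries were from WT (sham) mice. All mice were C57BL/6J females aged 12 to 14 months. All carried a Cre recombinase driven by the mouse Gfap promoter and the RiboTag allele, in which Cre adds an HA tag to the ribosomal protein Rpl22. The ERβ cKO (sham) mice also carried a floxed exon of Esr2, the gene of ERβ, on both alleles and had sham surgery. The WT (GDX) mice had intact Esr2 and were gonadectomized at 2 months of age. Genotype and gonadal status therefore both differ between the groups, and this comparison alone cannot tell their parts in any difference apart. Each group is set beside WT (sham) in the last paragraph of these results. Deletion of Esr2 was limited to cells in which the Gfap promoter had driven Cre, whereas gonadectomy removed ovarian hormones from the whole body.

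ERβ is a nuclear receptor that binds estradiol and then binds estrogen response elements in DNA, and gonadectomy lowers the ligand of this and of every other estrogen receptor. Astrocytes take up glutamate and GABA released at synapses, buffer potassium and water through channels and gap junctions, make cholesterol for neurons, and wrap blood vessels with their endfeet. In RiboTag mice, antibodies to HA pull down ribosomes of the cells that expressed Cre, with the RNA they were translating, and RNA of neighbouring cells is carried along to some extent.

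The 8 libraries held between 16968588 and 18092511 counts. Levels are given as CPM, counts scaled to library totals, on the trimmed mean of M values (TMM) scale, which corrects for library size and composition, and are not divided by gene length. A gene was called changed at an adjusted p under 0.1 in edgeR's quasi-likelihood test with Benjamini-Hochberg adjustment, and every fold change is ERβ cKO (sham) minus WT (GDX) on the log2 scale. Genes without a count in more than 3 of these libraries were set aside. This left 19759 of 39017 gene identifiers to be tested, of which 820 (4.15%) were changed. Of these, 381 (1.93% of the genes tested) were higher in ERβ cKO (sham) and 439 (2.22%) were higher in WT (GDX). Scaling by library size alone gave 558 and 274, and upper quartile scaling gave 495 and 312, so the split between the directions depended on the scaling. The changes were mostly small, with a median size of 0.50, and 88 of the 820 exceeded 2-fold, 75 of them higher in ERβ cKO (sham). In 664 of the 820 the libraries of the groups did not overlap in CPM, against 9.82% of all genes tested.

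The number of changed genes depended on single mice. It was 144 without ERβ cKO (sham) F1, 192 without F3, 1383 without F4 and 2450 without F5. It was 243 without WT (GDX) F1, 333 without F2, 104 without F3 and 188 without F4. Of 85 changed genes followed below, 35 kept their call whichever library was left out. These 35 were Sdc4, Thrsp, Klhdc7a, Mt1, Mt2, Smim3, Fam151a, Nde1, Pnpla2, Gja1, Gjb2, Gjb6, Glul, Gabra2, Pdk4, Msmo1, Sc5d, Insig1, Atoh8 and Bbox1 among those higher in WT (GDX), with Eno1b, and Gm4735, Eno1, Megf6, Miip, Tnfrsf8, Pik3cd, Sptb, Crocc, Fn1, Lama4, Vwf, Plxnd1, Akap8l and Cxcl12 among those higher in ERβ cKO (sham). Among the others, leaving out WT (GDX) F3 ended 46 calls, F4 36, F1 30 and F2 29. Leaving out ERβ cKO (sham) F1 ended 40, F3 39, F5 4 and F4 2.

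The targeted gene could not serve as a check of the labels. Esr2 had 1, 0, 4 and 0 counts in the ERβ cKO (sham) libraries F1, F3, F4 and F5, 4, 7, 0 and 0 in the WT (GDX) libraries F1 to F4, and 2, 4 and 0 in WT (sham). These counts were too few to be tested, and Esr2 reads did not separate the groups in any direction. Esr1, which encodes the other nuclear estrogen receptor, had 4.91 ± 1.15 CPM in ERβ cKO (sham) and 5.76 ± 0.71 CPM in WT (GDX) (SD, n = 4) and did not pass the test (adjusted p = 0.59). None of the 10 steroid receptor genes tested was changed by edgeR's quasi-likelihood test or by DESeq2, and 1 had an unadjusted p under 0.05.

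Most genes of the astrocyte marker list were lower in ERβ cKO (sham) than in WT (GDX). For all 20 genes of the astrocyte list the log2 fold change was below 0, from -0.78 to -0.27 and -0.46 at the median, where the median over all genes tested was 0.0019. Of the 20, 14 (70%) were changed, all of them higher in WT (GDX), beside 2.22% of all genes. The summed level of the list was 29130, 29310, 35250 and 35230 CPM in the ERβ cKO (sham) libraries F1, F3, F4 and F5, and 40070, 41210, 48090 and 42460 CPM in the WT (GDX) libraries F1 to F4, with no overlap. The 3 WT (sham) libraries had 35420, 33830 and 38760 CPM and lay between them, overlapping with ERβ cKO (sham). In bulk libraries such as these, fewer captured astrocytes and less of this RNA per astrocyte cannot be told apart. The number of the 20 genes that were changed fell to 3 without WT (GDX) F3, to 7 without WT (GDX) F1, F2 or F4, and to 4 and 6 without F1 and F3 of ERβ cKO (sham), rose to 19 without F5 of that group, and was 9 after scaling by library size alone. The median of the list was negative in each of these fits. When, as an alternative chosen after seeing the data, the libraries were scaled to these 20 genes, the log2 fold changes of all genes were shifted upward together, with the median of all genes at 0.49. By this shift the medians of the cholesterol synthesis, fatty acid, GABA and glucocorticoid-responsive lists described below came to lie above 0, while Gabra2 (-0.58), Tsc22d3 (-0.46), Pdk4 (-0.45), Mt2 (-0.35) and Mt1 (-0.27) stayed below 0. Whether these lists differed from the astrocyte list was not tested.

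**Figure D1:**
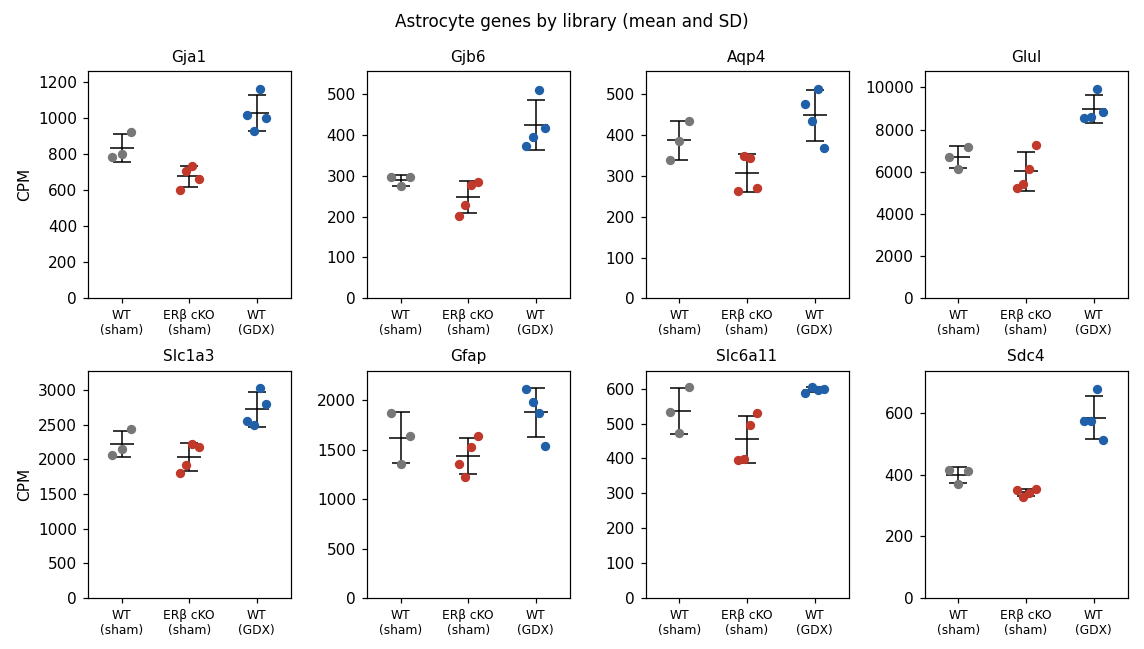
Level of 8 genes (vertical axes, CPM from 0) in each library (points) of the 3 groups named on the horizontal axes, with the mean (wide bar) and SD (error bars). The 4 WT (GDX) libraries lay above all 4 ERβ cKO (sham) libraries for each gene shown except Gfap.

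The gap junction proteins that couple astrocytes to each other stood at the head of the list. Gja1, which encodes connexin 43, had 602, 709.5, 736 and 665 CPM in the ERβ cKO (sham) libraries F1, F3, F4 and F5 and 1019, 928, 1165 and 1002 CPM in the WT (GDX) libraries F1 to F4 (log2 fold change -0.61 ± 0.10 (SE), adjusted p = 0.0094). Gjb6, which encodes connexin 30, had 202, 229, 277 and 285 CPM against 373, 396, 510.4 and 418 CPM in the same order (log2 fold change -0.78 ± 0.12 (SE), adjusted p = 0.0096). For both genes every WT (GDX) library was higher than every ERβ cKO (sham) library. The third astrocyte connexin, Gjb2 (connexin 26), was far less abundant, with 11.6 ± 1.55 CPM in ERβ cKO (sham) and 19.7 ± 1.35 CPM in WT (GDX) (SD, n = 4), and was also changed (edgeR's quasi-likelihood test, adjusted p = 0.013). Of 12 genes for gap junctions, channels and ion transport, 9 were higher in WT (GDX), beside 2.22% of all genes, and none was higher in ERβ cKO (sham), with a median of -0.44, and the count ranged from 3 without WT (GDX) F3 to 11 without ERβ cKO (sham) F4. It was 4 without ERβ cKO (sham) F1, and 5 without ERβ cKO (sham) F3, WT (GDX) F1 or WT (GDX) F4.

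The other changed members of that list serve water, potassium and bicarbonate transport. Aqp4, the water channel of astrocyte endfeet, had 264, 348, 345 and 271 CPM in ERβ cKO (sham) and 476, 435, 514 and 369.9 CPM in WT (GDX) (log2 fold change -0.56 ± 0.12 (SE), adjusted p = 0.027). Its highest ERβ cKO (sham) library came close to the lowest WT (GDX) library, F4, without overlap. Slc4a4, a sodium bicarbonate cotransporter, had a log2 fold change of -0.46 (adjusted p = 0.023), and Kcnj16, an inwardly rectifying potassium channel subunit, one of -0.48 (adjusted p = 0.04). The sodium pump subunit Atp1b2 had a value of -0.42 (adjusted p = 0.077). Aqp4, Slc4a4 and Atp1b2, like Gja1 and Gjb6, also belong to the astrocyte list and were counted there. Kcnj10, the main glial potassium channel, was at -0.29 and did not pass the test (adjusted p = 0.22).

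Of 12 genes of glutamate uptake and turnover, Glul and Slc1a3 were changed, both higher in WT (GDX), beside 2.22% of all genes in this direction. The list median was -0.23, and 3 of the 12 were above 0. Glul and Slc1a3 also belong to the astrocyte list and were counted there. Glul encodes glutamine synthetase, which turns glutamate into glutamine in astrocytes. It had 5245, 5422, 6127 and 7259 CPM in ERβ cKO (sham) and 8532, 8615, 9935 and 8832 CPM in WT (GDX), with no overlap (log2 fold change -0.59 ± 0.11 (SE), adjusted p = 0.017). Reads of its near-identical copy Glns-ps1 may be shared with it, and the sum of both was 6382 ± 959 against 9505 ± 707 CPM (SD, n = 4, exact permutation test, two-sided p = 0.029, the smallest that 4 against 4 allows). Of the glutamate transporters, Slc1a3 (GLAST) fell from 2720 ± 248 CPM in WT (GDX) to 2033 ± 202 CPM in ERβ cKO (sham) (SD, n = 4, edgeR adjusted p = 0.042), and Slc1a2 (GLT-1) was at -0.35 on the log2 scale and did not pass (adjusted p = 0.11). The count of changed genes in the list was 1 without ERβ cKO (sham) F1 or F3 or WT (GDX) F3 or F4 and rose to 6 without F5 and 3 without F4 of ERβ cKO (sham).

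For GABA, 5 of 16 genes were changed, all higher in WT (GDX), beside 2.22% of all genes in this direction. Gabra2, which encodes a GABA-A receptor subunit and is not confined to astrocytes, had the greatest change of the 16. Its level was 111, 77.7, 61.5 and 117 CPM in ERβ cKO (sham) and 190.2, 183, 196 and 195 CPM in WT (GDX) (log2 fold change -1.07 ± 0.17 (SE), adjusted p = 0.013). The 3 WT (sham) libraries had 152, 208 and 189 CPM, so that the ERβ cKO (sham) libraries were below those of both WT groups, although ERβ cKO (sham) against WT (sham) did not pass the test (log2 fold change -0.995, adjusted p = 0.34). The GABA transporter Slc6a11 (GAT-3) had a log2 fold change of -0.40 (adjusted p = 0.063). Abat, the enzyme that degrades GABA, was at -0.33 (adjusted p = 0.079) and Gabrg1 at -0.41 (adjusted p = 0.086). The receptor subunit Gabra5, found mainly in neurons, was at -0.05 and did not pass. Gabra2 alone kept its call without ERβ cKO (sham) F1 or F3, or WT (GDX) F2 or F3, and without WT (GDX) F1 or F4 the count was 2.

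Gfap, the intermediate filament whose promoter drove Cre, had 1357, 1225, 1525 and 1642 CPM in ERβ cKO (sham) and 2117, 1983, 1869 and 1537 CPM in WT (GDX). The groups overlapped, since WT (GDX) F4 was below ERβ cKO (sham) F5 (log2 fold change -0.40 ± 0.11 (SE), adjusted p = 0.082). Aldh1l1, a folate enzyme used as an astrocyte marker, also overlapped (log2 fold change -0.50 ± 0.15 (SE), adjusted p = 0.093). Sox9, a transcription factor of the glial lineage, and S100b, a calcium-binding protein, did not overlap and had log2 fold changes of -0.46 and -0.56 (adjusted p = 0.052 and 0.06). The changed reactive astrocyte genes did not share a direction. In the pan-reactive list 2 of 11 were changed (18.2%, beside 4.15% of all genes), Gfap higher in WT (GDX) and Cp in ERβ cKO (sham). In the A1 list none of 12 was changed by edgeR (2 had an unadjusted p under 0.05, and DESeq2 called 1). In the A2 list S100a10 was the 1 changed gene of 12 (8.33%). It was higher in WT (GDX), whereas 8 of the 12 were above 0 (median 0.45).

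**Figure D2:**
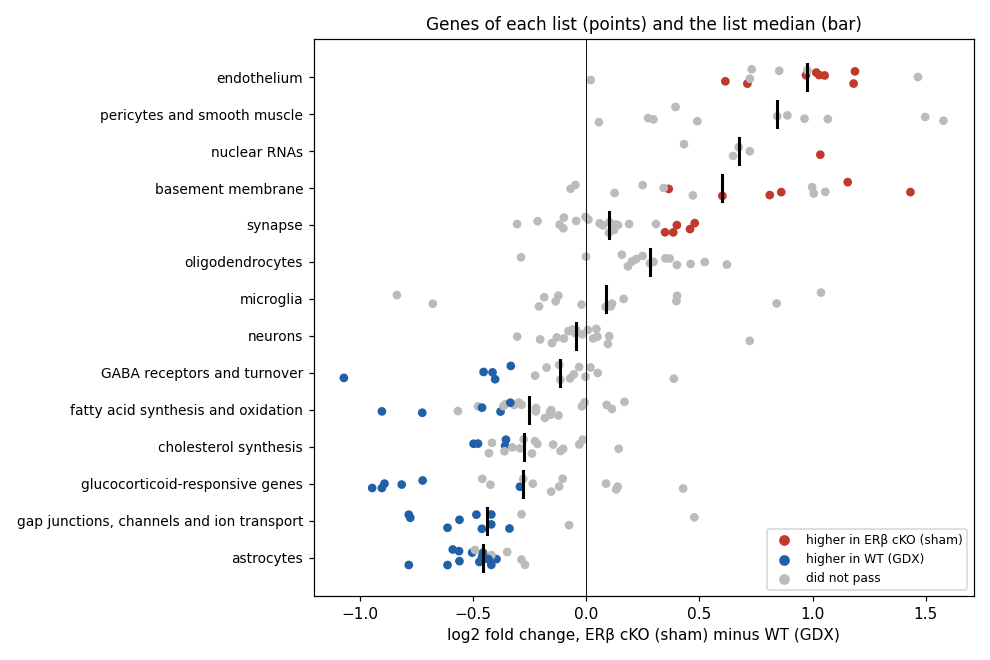
Log2 fold change of ERβ cKO (sham) minus WT (GDX) (horizontal axis) for each tested gene (points) of 14 lists (rows), with the list median (black bar). Red genes were higher in ERβ cKO (sham) and blue genes in WT (GDX) at an adjusted p under 0.1. The astrocyte list lay wholly below 0 and the endothelium and pericyte lists wholly above 0.

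Outside the marker list, the genes with the smallest p among those higher in WT (GDX) were led by Sdc4. It encodes syndecan 4, a heparan sulfate proteoglycan of the cell surface. Sdc4 had 349.9, 329, 339 and 352 CPM in ERβ cKO (sham) and 573, 574, 678 and 514 CPM in WT (GDX) (log2 fold change -0.78 ± 0.09 (SE), adjusted p = 0.0013). The ERβ cKO (sham) libraries were tightly grouped and far below the lowest WT (GDX) library, and the WT (sham) libraries, at 415, 370.0 and 411 CPM, lay in between. Thrsp, a regulator of lipogenesis known from liver and fat, had 86.5, 78, 92.4 and 123 CPM against 189, 168, 198 and 167 CPM (log2 fold change -0.94 ± 0.13 (SE), adjusted p = 0.0054). The remaining genes of smallest p in this direction were Klhdc7a, Mt2, Smim3, Fam151a, Nde1 and Pnpla2, beside Gja1 and Gjb6. Pnpla2 encodes adipose triglyceride lipase and Nde1 a partner of the motor protein dynein. Their log2 fold changes ran from -0.95 for Smim3 to -0.70 for Klhdc7a, and none of them overlapped between the groups.

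Promoters were searched for estrogen receptor binding sequences because both groups had lost part of estrogen signalling. RefSeq promoters of 300 bases (GRCm38.p6, 250 before to 50 after each start) were matched by symbol for 622 of the 820 changed genes. The full estrogen response element, GGTCANNNTGACC, was in none of them, and in 3 of 12977 tested genes with a promoter (0.0231%). A single arm of the element, AGGTCA on either strand, which a full element can contain, was in the promoters of 43 of 285 genes higher in ERβ cKO (sham) (15.1%) and 49 of 337 higher in WT (GDX) (14.5%), beside 15.3% of all tested genes. The glucocorticoid response element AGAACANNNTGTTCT was in none of the promoters of changed genes and in 1 of the 12977. The shares of the changed genes were thus close to that of all genes. To show what such an arm looks like, the stretches around it are given for Sdc4, Glul, Gjb2 and Insig1. These were picked among the changed genes that hold the arm and do not stand for changed genes at large. The arm is in capitals and begins 196, 57, 191 and 105 bases before the annotated start. The stretches lie on chr2:164443319-164443438 (minus strand), chr1:153899812-153899937 (plus strand), chr14:57104828-57104952 (minus strand) and chr5:28071247-28071372 (plus strand).
Sdc4: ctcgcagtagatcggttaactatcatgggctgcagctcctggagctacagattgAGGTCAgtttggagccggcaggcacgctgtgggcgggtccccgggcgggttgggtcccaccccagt
Glul: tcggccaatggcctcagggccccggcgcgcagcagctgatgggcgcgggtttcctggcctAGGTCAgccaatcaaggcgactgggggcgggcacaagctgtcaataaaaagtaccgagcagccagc
Gjb2: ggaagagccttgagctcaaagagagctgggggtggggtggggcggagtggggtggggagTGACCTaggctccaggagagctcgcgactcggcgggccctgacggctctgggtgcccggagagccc
Insig1: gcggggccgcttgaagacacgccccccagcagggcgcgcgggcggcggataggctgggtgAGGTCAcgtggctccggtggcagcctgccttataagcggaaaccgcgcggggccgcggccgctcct
In Gjb2 the arm reads on the opposite strand. A match of letters does not show that a receptor binds there.

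Some genes of sterol and lipid metabolism were lower in ERβ cKO (sham). Astrocytes supply cholesterol to neurons, packed with apolipoprotein E. Of 19 cholesterol synthesis genes, 18 were below 0 (median -0.28), where 50.2% of all genes tested were above 0, and 4 were changed, all higher in WT (GDX), beside 2.22% of all genes. Msmo1, a sterol methyl oxidase, had 144, 161, 154 and 167 CPM in ERβ cKO (sham) and 217, 209.5, 247 and 203 CPM in WT (GDX), with no overlap (log2 fold change -0.50 ± 0.09 (SE), adjusted p = 0.019). Sc5d, a later enzyme of the same route, had 64, 70.6, 66.7 and 58.7 CPM against 90.6, 85.6, 93.7 and 89 CPM, also with no overlap (log2 fold change -0.48 ± 0.09 (SE), adjusted p = 0.019). Hmgcs1 and Cyp51 were at -0.36 and -0.35 (adjusted p = 0.056 and 0.082). Insig1, an ER membrane protein that holds back sterol synthesis, was also lower in ERβ cKO (sham) (log2 fold change -0.50 ± 0.10 (SE), adjusted p = 0.019), as were Apoe (-0.47, adjusted p = 0.073), Lcat (-0.50, adjusted p = 0.069) and Npc2 (-0.37, adjusted p = 0.092). Apoe and Lcat overlapped between the groups. The count of changed cholesterol synthesis genes was 2 without ERβ cKO (sham) F1 or F3 or WT (GDX) F1, F2 or F3, and 10 without ERβ cKO (sham) F5.

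Of 24 genes of fatty acid synthesis and oxidation, 21 had a negative log2 fold change (median -0.25) and 5 were changed, all higher in WT (GDX), beside 2.22% of all genes. Pdk4, a kinase that shuts off pyruvate dehydrogenase when fat is burned, had 18.6, 20.4, 31.2 and 28.8 CPM in ERβ cKO (sham) and 49.9, 39.8, 49.5 and 44.4 CPM in WT (GDX), with no overlap (log2 fold change -0.90 ± 0.15 (SE), adjusted p = 0.013). The desaturases Scd1 and Scd2 were at -0.46 and -0.33 (adjusted p = 0.069 and 0.094). Acadl, of β-oxidation, was at -0.38 (adjusted p = 0.073) and overlapped between the groups. Only Pdk4 kept its call without ERβ cKO (sham) F1 or F3 or WT (GDX) F2, F3 or F4, and 13 of the 24 were changed without ERβ cKO (sham) F5. Fasn and Acaca, the enzymes that build fatty acids, were at 0.11 and 0.09 and did not pass.

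Genes known to respond to glucocorticoids, the adrenal steroid hormones, included several of the greater differences. Of 17 such genes, 6 were changed and all 6 were higher in WT (GDX) (Mt1, Mt2, Tsc22d3, Pdk4, Sult1a1 and Klf9), beside 2.22% of all genes in this direction, with a median of -0.28 over the 17. Pdk4 was also counted among the fatty acid genes above. Mt2, a metallothionein that binds zinc and copper, had 218, 211, 272 and 295 CPM in ERβ cKO (sham), 452, 454, 471 and 361 CPM in WT (GDX) and 269, 247 and 284 CPM in WT (sham) (log2 fold change -0.81 ± 0.12 (SE), adjusted p = 0.008). Mt1 and Mt2 are close copies, and their summed level was 633.2 ± 131 against 1064 ± 75.5 CPM (SD, n = 4, exact permutation test, two-sided p = 0.029). Tsc22d3, known as GILZ, had 233, 254, 291 and 243 CPM in ERβ cKO (sham) and 531, 534, 581 and 304 CPM in WT (GDX) (log2 fold change -0.95 ± 0.17 (SE), adjusted p = 0.026). Its WT (GDX) library F4 was close to the ERβ cKO (sham) libraries while the other 3 were well above them. Not all genes of this list moved, since Fkbp5, Sgk1 and Per1, which are also known targets, were at -0.10, 0.09 and 0.14 and did not pass. The count was 3 without ERβ cKO (sham) F3, 4 without ERβ cKO (sham) F1 or WT (GDX) F3 or F4, and 5 without WT (GDX) F1 or F2.

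The 12 largest falls in ERβ cKO (sham), among genes with a mean of 10 or more counts and no overlap, included Fsd2, Slitrk6, Atoh8, Cyp1b1 and Bbox1. Fsd2 was at 0.599 ± 0.19 CPM against 2.10 ± 0.32 CPM in WT (GDX) (SD, n = 4, edgeR adjusted p = 0.023). Cyp1b1, an enzyme that hydroxylates estradiol, had 2.46, 1.34, 2.36 and 2.22 CPM in ERβ cKO (sham), 4.93, 3.94, 5.45 and 4.42 CPM in WT (GDX) and 4.66, 4.89 and 3.55 CPM in WT (sham). Both WT groups were thus above the ERβ cKO (sham) libraries. The comparison with WT (GDX) passed (log2 fold change -1.17 ± 0.25 (SE), adjusted p = 0.03), but not without WT (GDX) F3. ERβ cKO (sham) against WT (sham) did not pass (log2 fold change -1.06, edgeR adjusted p = 0.62). Atoh8, a basic helix-loop-helix transcription factor, had a log2 fold change of -1.19, and Bbox1, the last enzyme of carnitine synthesis, one of -0.99 (adjusted p = 0.019 and 0.012).

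Of 14 endothelial genes, 8 were higher in ERβ cKO (sham), beside 1.93% of all genes in this direction. All 14 were above 0 on the log2 scale (median 0.97). Their summed level was 254.8, 305.9, 273.6 and 308.5 CPM in the ERβ cKO (sham) libraries and 226.8, 225.5, 158.1 and 130.3 CPM in the WT (GDX) libraries, which did not overlap. The WT (sham) libraries spread from 113.2 to 263.9 CPM and overlapped with both groups. All 11 pericyte and smooth muscle genes were also positive (median 0.84). None of them was changed by edgeR's quasi-likelihood test, 6 had an unadjusted p under 0.05, and DESeq2 called 6. The number of changed endothelial genes was 1 without WT (GDX) F3, 2 without ERβ cKO (sham) F3, 3 without ERβ cKO (sham) F1 or WT (GDX) F4, and 4 without WT (GDX) F2. In the single fit of all 3 groups it was 2.

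**Figure D3:**
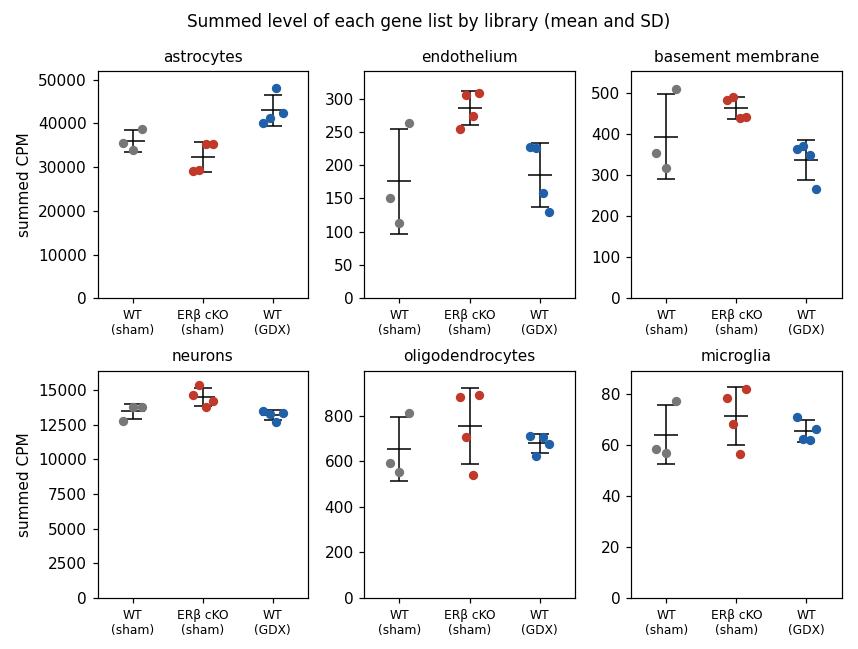
Summed CPM of 6 gene lists (vertical axes, from 0) in each library (points) of the 3 groups named on the horizontal axes, with the mean (wide bar) and SD (error bars). Astrocyte, endothelium, basement membrane and neuron sums did not overlap between ERβ cKO (sham) and WT (GDX), and those of oligodendrocytes and microglia did.

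Vwf, the von Willebrand factor that endothelial cells store and secrete, was the endothelial gene of smallest p. It had 9.6, 10.1, 10.3 and 6.37 CPM in ERβ cKO (sham) and 2.69, 4.79, 4.01 and 4.42 CPM in WT (GDX) (log2 fold change 1.18 ± 0.22 (SE), adjusted p = 0.016). The WT (sham) libraries, at 9.21, 4.66 and 14.4 CPM, did not set ERβ cKO (sham) apart from intact WT mice. Esam and Kdr, an adhesion molecule and the main receptor for vascular endothelial growth factor, had log2 fold changes of 0.97 and 0.71 (adjusted p = 0.045 and 0.06). The transporters of the blood-brain barrier Abcb1a and Slco1a4 were at 1.05 and 1.03 (adjusted p = 0.065 and 0.073), and Egfl7, Ly6c1 and Ptprb were also changed. Other defining endothelial genes did not pass, among them Pecam1 at 0.72, Cldn5 at 0.85 and Flt1 at 0.98, and the glucose transporter Slc2a1 was at 0.020. Emcn, an endothelial sialomucin outside the list, had 1.62, 2.97, 2.7 and 3.87 CPM against 1.57, 1.03, 0.401 and 0.567 CPM (log2 fold change 1.62 ± 0.40 (SE), adjusted p = 0.056).

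The basement membrane, the protein sheet between vessels and astrocyte endfeet, also held genes that were higher in ERβ cKO (sham). Of its 15 genes, 6 were changed, all in this direction, beside 1.93% of all genes, with a median of 0.60. Their summed level was 439.3 to 490.1 CPM in ERβ cKO (sham) and 265.7 to 372.1 CPM in WT (GDX). The WT (sham) libraries had 353.4, 318.5 and 511.5 CPM and so reached from the WT (GDX) range to above the ERβ cKO (sham) range. Lama4, the laminin chain of endothelium, had 6.58, 7.51, 3.99 and 8.42 CPM in ERβ cKO (sham) and 2.3, 2.57, 2.92 and 1.93 CPM in WT (GDX), with no overlap (log2 fold change 1.43 ± 0.25 (SE), adjusted p = 0.013). Fn1, which encodes fibronectin, had 49.2, 67.3, 57 and 54 CPM against 30.9, 38, 31.4 and 23.9 CPM, again with no overlap (log2 fold change 0.86 ± 0.13 (SE), adjusted p = 0.008). The others were Hspg2 (perlecan) at 1.16, Col4a2 (a collagen IV chain) at 0.60, Agrn (agrin) at 0.36 and Lama5 at 0.81, with adjusted p between 0.027 and 0.082. Agrn lies 3.83 Mb from Rpl22, a region described below. The count was 2 without WT (GDX) F3, 3 without ERβ cKO (sham) F1 or F3 or WT (GDX) F4, and 4 without WT (GDX) F1. Cxcl12, a chemokine made by vessels and also listed as estrogen responsive, was higher in ERβ cKO (sham) (log2 fold change 0.59 ± 0.11 (SE), adjusted p = 0.019) and was the 1 changed gene among 16 estrogen-responsive genes (6.25%, beside 4.15% of all genes).

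Markers of other cells gave fewer changes. None of 17 neuronal genes was changed by edgeR (median -0.04, with 2 at an unadjusted p under 0.05 and 1 called by DESeq2), and Rbfox3, which encodes the neuronal nuclear protein NeuN, had 309.9 ± 28.2 CPM in ERβ cKO (sham) and 286.4 ± 22.6 CPM in WT (GDX) (SD, n = 4, edgeR adjusted p = 0.63). The summed neuronal level was nevertheless 13760 to 15330 CPM in ERβ cKO (sham) and 12680 to 13500 CPM in WT (GDX), without overlap. None of 15 microglial or 15 oligodendrocyte genes was changed, with medians of 0.09 and 0.28, 2 at an unadjusted p under 0.05 in each list, and 1 and 0 called by DESeq2. Of 6 oligodendrocyte precursor genes, 2 were higher in ERβ cKO (sham), beside 1.93% of all genes in this direction. They were Vcan and Cspg4, both chondroitin sulfate proteoglycans (log2 fold changes 0.72 and 0.63, adjusted p = 0.045 and 0.054). None of the 6 was changed without ERβ cKO (sham) F1 or WT (GDX) F2, F3 or F4. Their summed level overlapped, at 59.6 to 145.8 CPM in ERβ cKO (sham) and 50.3 to 88.7 CPM in WT (GDX). Of 10 genes of meninges and fibroblasts, Col1a1 and Mgp were higher in ERβ cKO (sham) (20%, beside 1.93% of all genes in this direction). None of the 10 was changed without ERβ cKO (sham) F1 or F3. Neuronal RNA was thus clearly present in these libraries, in which 14 of 20 astrocyte genes were lower and 8 of 14 endothelial genes higher in ERβ cKO (sham). What share of any other difference moved with this makeup of the libraries was not tested.

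Synaptic genes were split. Of 22, 5 were changed and all 5 were higher in ERβ cKO (sham), beside 1.93% of all genes in this direction, while the list median was 0.10 and Dlg4 and Syn1, which encode PSD-95 and synapsin 1, were at 0.07 and 0.12 and did not pass. The 5 were Shank1, Shank2 and Shank3, large scaffold proteins of the postsynaptic density, Camk2a, the kinase of synaptic plasticity, and Bsn, which encodes the presynaptic scaffold bassoon. Shank3 had 190.2, 193, 185 and 201 CPM in ERβ cKO (sham) and 136, 155, 151 and 112 CPM in WT (GDX), with no overlap (log2 fold change 0.46 ± 0.10 (SE), adjusted p = 0.036). The other 4 had log2 fold changes from 0.35 to 0.48. None of the 5 was changed without WT (GDX) F4, 1 gene of the list was changed without ERβ cKO (sham) F1 or F3 or WT (GDX) F1, and 2 were without WT (GDX) F3.

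Several of these genes are long, and transcript length moved with the direction of change. The median summed exon length was 7151 bases for genes higher in ERβ cKO (sham), 3860 bases for genes higher in WT (GDX) and 3628 bases for all genes tested, over the 98.8% of changed genes with an annotated length. Among protein-coding genes alone these medians were 7461, 3985 and 4336 bases, so that genes higher in WT (GDX) were the shorter ones there, whereas genes higher in ERβ cKO (sham) were longer either way. Malat1, a noncoding RNA kept in the nucleus, moved with them, at 2489, 2924, 1729 and 3305 CPM in ERβ cKO (sham) and 1242, 1316, 1645 and 852 CPM in WT (GDX) (log2 fold change 1.03 ± 0.23 (SE), adjusted p = 0.073). All 5 nuclear RNAs had a positive log2 fold change (median 0.67), and Malat1 was the 1 of them that was changed (20%, beside 4.15% of all genes). Malat1 lost its call without ERβ cKO (sham) F1, F3 or F5 or WT (GDX) F1 or F2, and 4 of the 5 nuclear RNAs were changed without ERβ cKO (sham) F4. The summed level of the nuclear RNAs was lowest in library F4 of both groups, where it was 6157 CPM for ERβ cKO (sham) and 3701 CPM for WT (GDX), against 10470 to 10940 and 5882 to 6315 CPM in the others. The part of length and of nuclear RNA in the changes was not tested.

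The enolases held the gene of smallest p in the comparison, the pseudogene Gm4735. Enolase is the glycolytic enzyme that makes phosphoenolpyruvate, and Eno1 encodes its widespread form. Eno1 had 83.8, 86.2, 77.1 and 104 CPM in the ERβ cKO (sham) libraries, 50.5, 58, 50.3 and 54.7 CPM in WT (GDX) and 54.5, 43.5 and 53.6 CPM in WT (sham) (log2 fold change 0.71 ± 0.11 (SE), adjusted p = 0.008). All libraries of both WT groups lay below those of ERβ cKO (sham), and Eno1 was also changed between ERβ cKO (sham) and WT (sham) (log2 fold change 0.80, edgeR adjusted p = 0.037). The processed pseudogene Gm4735, a near copy of Eno1 on chr2:80837141-80838442 (GRCm38), had 206, 141, 188 and 240 counts in the ERβ cKO (sham) libraries, 0, 0, 0 and 3 counts in the WT (GDX) libraries, and 0 in each WT (sham) library. Summed over the groups this was 775 against 3 counts, a ratio of 258 (95% interval 88.1 to 1256, for counting error only, with reads not independent molecules). Eno1b, another near-identical copy, went the other way (log2 fold change -0.86 ± 0.14 (SE), adjusted p = 0.012). Because 50-base reads can be assigned among these copies, single values are uncertain, and the sum of the 3 was 117 ± 15.9 CPM in ERβ cKO (sham), 86.0 ± 8.41 CPM in WT (GDX) (SD, n = 4, exact permutation test, two-sided p = 0.029) and 83.1 ± 12.9 CPM in WT (sham) (n = 3). Of the 18 glycolysis genes, Eno1 was the 1 that edgeR's quasi-likelihood test called (5.56%, close to the 4.15% of all genes). In this list 6 had an unadjusted p under 0.05 and DESeq2 called 4. Without ERβ cKO (sham) F5 the edgeR count was 4, and without ERβ cKO (sham) F4 it was 2.

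Eno1 lies 2.08 Mb from Rpl22, the gene that carries the RiboTag allele, on chr4:152325742-152334071. Within 10 Mb of Rpl22, 19 of 204 tested genes (9.31%) were changed, beside 4.15% of all genes, 11 of them higher in ERβ cKO (sham) and 8 higher in WT (GDX). Within 5 Mb it was 16 of 178 (8.99%) and within 20 Mb 29 of 408 (7.11%). Around Esr2 (chr12:76120419-76177259), 9 of 192 (4.69%) were changed. Megf6, an EGF repeat protein 1.84 Mb from Rpl22, had 3.96, 4.02, 2.42 and 3.98 CPM in ERβ cKO (sham), 1.68, 1.08, 1.2 and 0.737 CPM in WT (GDX) and 0.444, 0.291 and 0.815 CPM in WT (sham) (log2 fold change 1.59 ± 0.31 (SE), adjusted p = 0.019). Tnfrsf8, which encodes the receptor CD30, had 1, 1.11, 0.562 and 1.14 CPM against 0.056, 0.114, 0.115 and 0 CPM and was at 0 in all 3 WT (sham) libraries. Miip (1.28), Pik3cd (0.68), a catalytic subunit of phosphoinositide 3-kinase, and Kcnab2 (0.40), a potassium channel subunit, were further genes of this region higher in ERβ cKO (sham) (adjusted p = 0.014, 0.019 and 0.036). Rpl22 itself was at 0.04 (adjusted p = 0.89). Sptb, a spectrin chain 0.4 Mb from Esr2, had 392.3, 373, 303 and 379 CPM in ERβ cKO (sham) and 234, 249, 245 and 180.3 CPM in WT (GDX) (log2 fold change 0.66 ± 0.11 (SE), adjusted p = 0.012). Whether sequence differences linked to the edited alleles bear on these genes was not tested.

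**Figure D4:**
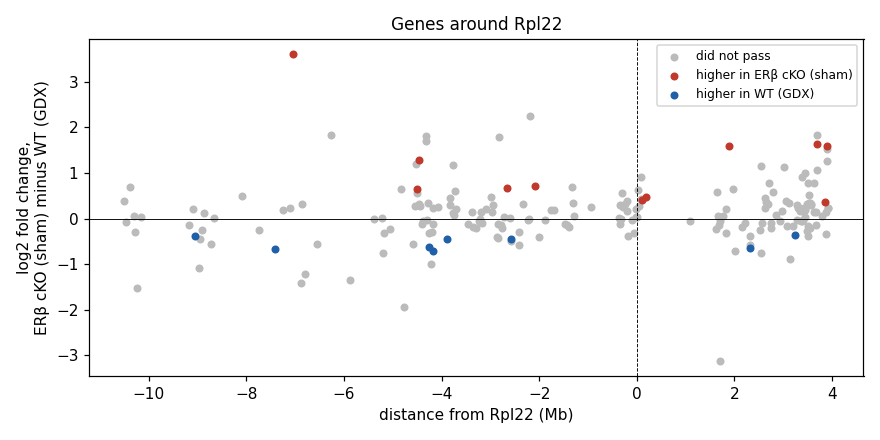
Log2 fold change of ERβ cKO (sham) minus WT (GDX) (vertical axis) of each tested gene within about 10 Mb of Rpl22, by its distance from the middle of Rpl22 (horizontal axis, Mb, dashed line at 0). Red genes were higher in ERβ cKO (sham) and blue genes in WT (GDX), and the changed genes lay on both sides of 0.

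The comparisons with WT (sham), which share libraries with the one above, gave far fewer calls, with 6 of 19938 genes (0.0301%) changed between ERβ cKO (sham) and WT (sham) and 86 of 19695 (0.437%) between WT (GDX) and WT (sham). They rest on 3 WT (sham) libraries that spread widely, with endothelial sums from 113.2 to 263.9 CPM and nuclear RNA sums from 4075 to 9270 CPM. A gene that did not pass there is therefore not shown to be unchanged. Gabra2, at -0.995 between ERβ cKO (sham) and WT (sham), did not pass (edgeR adjusted p = 0.34). For Sdc4 the log2 fold change was -0.22 between ERβ cKO (sham) and WT (sham) (edgeR adjusted p = 0.93) and 0.55 between WT (GDX) and WT (sham) (adjusted p = 0.0089). For Gjb6 these values were -0.22 (adjusted p = 0.95) and 0.55 (adjusted p = 0.011). Mt2 gave -0.10 (adjusted p = 0.98) and 0.70 (adjusted p = 0.00079), and Thrsp -0.27 (adjusted p = 0.95) and 0.65 (adjusted p = 0.0017). For these genes WT (GDX) differed from intact WT mice past the threshold. For Gja1, by contrast, the values were -0.30 and 0.30, and neither passed (adjusted p = 0.86 and 0.25). Both of its steps were of like size, with the WT (sham) level between the other groups.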

How the data were processed

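RNA was taken from hippocampi of female mice by HA immunoprecipitation, and libraries were made with a KAPA stranded kit and read as single-end 50 bases. The authors separated libraries with bcl2fastq 2.17, checked them with FastQC, trimmed with Trimmomatic, and used QuasR for alignment to mm10 and gene-level counting. The files deposited by the authors hold raw counts that were not normalized. Not given in the sources used here are the strand setting, the annotation release and how multiply matching reads were treated, so antisense, overlapping and copied genes are uncertain. Names and places came from GENCODE M21 (37693 of 39017 identifiers), and promoters from RefSeq.

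Groups came from the sample labels. Nothing links samples beyond 1 library per mouse. Genes without a count in more than 3 of the libraries were set aside, and the others were TMM-normalized and compared in R 4.3.3 by the robust quasi-likelihood test of edgeR 4.0.16 (with limma 3.58.1), adjusted by Benjamini-Hochberg over all genes tested. DESeq2 1.42.0 was an alternative. Sums of copied genes were compared by the exact permutation test on log2(CPM + 0.5). The code was tested on simulated data. Mouse numbers F1, F3 and F4 occur in both groups and were not used as pairs. Alternatives covered scaling, filters, tests, a fit of all 3 groups, a mouse-number block and leaving out each mouse. Genes were named where they were among the 12 largest rises or falls (mean of 10 or more counts, groups not overlapping), the 10 smallest p in each direction, the changed members or 4 smallest p of a list, or near Rpl22 or Esr2. Other list members given as not passing, such as Fasn, Gabra5, Per1, Sgk1, Pecam1 and Cldn5, were chosen after their values were seen, as was Emcn's place beside the endothelial list. The members and lists were chosen with earlier results of these data known. No test of lists was made. Some members counted in the lists are not reported here by name.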

Additional observations from a re-analysis of the deposited data

Results flagged for a closer look

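Among 214 sets of 4 libraries, covering the genes followed in the report and 14 of the lists in each group, 14 had 1 library that stood apart from the other 3 (Dixon's 95% critical value), where chance gives about 1 in 20. In WT (GDX) F4, 5 values stood apart: Mt2 was lowest at 360.8 CPM, Miip lowest at 3.12 CPM, Lama5 lowest at 2.32 CPM and the nuclear RNA sum lowest at 3701 CPM, while Gm4735 was the highest at 0.17 CPM, where the other 3 had none. In WT (GDX) F3, Scd2 was the highest at 4681 CPM, Fsd2 at 2.58 CPM and the sum of fatty acid genes at 8055 CPM. In ERβ cKO (sham) F4, Megf6 was lowest at 2.42 CPM, the nuclear RNA sum was lowest at 6157 CPM and Syn1 was highest at 646.4 CPM. In ERβ cKO (sham) F5, the endothelial genes Esam and Egfl7 were highest, at 10.35 and 23.04 CPM. Kcnab2 was highest in ERβ cKO (sham) F1, at 540.8 CPM.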

How the results depend on the processing

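The count of 820 changed genes was within 1.5 times of this under the other scalings, filters, edgeR's exact test (1223), limma-voom and the fit of all 3 groups (633). It was 1628 with DESeq2, 1323 with the likelihood ratio test and 229 at an adjusted p under 0.05, of which 32.8% were higher in ERβ cKO (sham) against 46.5% of the 820. Leaving out 1 mouse at a time gave counts from 104 to 2450. With the mouse number as a replicate block, 3117 genes were changed, 787 of the 820 among them. ERβ cKO (sham) F5 and WT (GDX) F2 have no same-numbered mouse in the other group, so that fit drew the difference from the other mice only. Same-numbered mice were not alike throughout, with correlations of deviations of 0.015, 0.063 and 0.185 for F1, F3 and F4. F3 and F4 were each closest to their own number and F1 was closer to another, so the numbers were not taken as pairs. The sign of Rpl22 was not stable, at -0.056 with the block and from -0.045 to 0.13 with 1 mouse left out.

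An alternative chosen after seeing the data scaled the libraries so that the 20 astrocyte genes were equal on average. It moved the median of all genes to 0.49 and called 10782 genes, 10740 of them higher in ERβ cKO (sham). By construction the sign turned for Slc4a4 (0.034), Slc1a3 (0.048), Sox9 (0.012), Gfap (0.072), Atp1b2 (0.045), Slc6a11 (0.064), Abat (0.14), Gabrg1 (0.079), Klf9 (0.20), Sc5d (0.019), Hmgcs1 (0.13), Cyp51 (0.13), Npc2 (0.099), Scd1 (0.0063), Scd2 (0.14), Acadl (0.097), Esr1 (0.26) and P2ry12 (0.33). The medians of cholesterol synthesis (0.20), fatty acid (0.22), GABA (0.38) and glucocorticoid-responsive genes (0.21) were then above 0 through the same shift. No test compared these lists with the astrocyte list. The endothelial median was 1.44.

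Esr2 had too few counts for a test, and counts over a whole gene do not single out its floxed exon.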
